A study of Mus musculus with 12 samples.

Results

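Pax2, Pax3, Pax5, Pax6, Pax7, Pax8, En1, En2, Gbx1 and Gbx2 are 10 of the 55487 genes counted in embryoid bodies grown from mouse epiblast stem cells (EpiSCs), the primed pluripotent cells of the postimplantation embryo. They were taken by name as patterning genes of the neural tube, and each was found by its Ensembl identifier and mouse symbol. All 10 passed the filter on low counts, which kept 18109 genes of the whole table. Pax1, Pax4 and Pax9, the family members of other tissues, are not among them and serve only as context.

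The cells of all 4 groups were EpiSCs converted in culture from embryonic stem cells and carried a FLAG-tagged Mixl1 transgene that doxycycline induces (Mixl1DOX in the labels, which do not say how many clones were used). Mixl1 is a homeobox gene of the primitive streak. NoDox_d2 and NoDox_d4 are embryoid bodies collected on days 2 and 4 without doxycycline, and D1Dox_d2 and D3Dox_d4 are those collected on days 2 and 4 after doxycycline at 1 µg/mL, with 3 libraries in each group. What the number after the D stands for is not defined in the labels. Day and length of exposure therefore cannot be told apart between the doxycycline groups. The title states that the timing of Mixl1 expression was the question. No doxycycline samples without the transgene were analysed here, so that effects of the drug and of Mixl1 cannot be told apart.

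Pax genes encode transcription factors with a paired domain, and Pax3, Pax6 and Pax7 also carry a full homeodomain. In the embryo, Pax2, Pax5 and Pax8 with En1 and En2 are expressed around the midbrain-hindbrain boundary, where Gbx2 on the hindbrain side and Otx2 on the midbrain side repress each other. Pax3 and Pax7 mark the dorsal neural tube, the neural crest and the dermomyotome, and Pax6 marks the ventral to intermediate neural tube, the forebrain and the eye.

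Libraries held 24100487 to 28020036 counts, and levels are given as CPM (library-scaled counts) on TMM-scaled library sizes, where 3 counts correspond to 0.106 to 0.130 CPM. Mixl1 stood at 392, 362 and 387 CPM in D1Dox_d2 and at 478, 417 and 450 CPM in D3Dox_d4. It stood at 1.62, 1.83 and 1.11 CPM in NoDox_d4, but at 91.0, 0.593 and 1.15 CPM in NoDox_d2. The library labelled NoDox_d2 replicate 1 thus lay above all other NoDox libraries and below all doxycycline libraries, and the reason was not tested. A gene count cannot tell the transgene from the endogenous gene. That library and NoDox_d4 replicate 1 also stood apart from the rest of their groups, with correlations of log2 CPM to the other replicates of 0.957 to 0.961 where all other pairs within a group reached 0.987 to 0.992. The changes of the 10 genes and the counts over gene lists are therefore given with these libraries and without both, a setting chosen after seeing the data. Nothing in the labels ties replicates to separate cultures, and the p-values therefore describe the spread of these libraries, which may be technical.

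Several lists of marker genes also differed between the groups, and their part in the results below was not tested. The summed level of 11 fibroblast markers was 1718 to 2094 CPM in D1Dox_d2 against 301 to 415 CPM in NoDox_d2, and 423 to 500 CPM in D3Dox_d4. In NoDox_d4 it was 636 CPM in replicate 1, above all D3Dox_d4 libraries, and 140 and 141 CPM in replicates 2 and 3, below them. All 11 had counts in every library. The sum of 9 primed epiblast markers was 1291 to 1403 CPM in NoDox_d2, 648 to 714 CPM in D1Dox_d2, 464 to 789 CPM in NoDox_d4 and 408 to 450 CPM in D3Dox_d4. The sum of 10 neural markers was 654 to 944, 517 to 618, 627 to 1535 and 1874 to 2091 CPM in the same order of groups, and the 627 CPM were those of NoDox_d4 replicate 1, against 1490 and 1535 CPM in replicates 2 and 3. In bulk libraries, fewer cells that express a gene and less RNA per cell cannot be told apart.

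At day 2, Pax8 and Gbx2 rose with doxycycline and Pax3, Pax5 and Pax6 fell, so that 5 of 10 genes passed an edgeR adjusted p of 0.05. Over all genes tested 28.4% passed, with 14.9% higher and 13.4% lower. The median log2 fold change was -0.82 over the 10 genes and -0.03 over all genes. At day 4, Pax2, Pax8, En1 and Gbx2 rose and none of the 10 fell; 23.5% of all genes passed, 13.4% higher and 10.2% lower. Of lower values at day 4, edgeR gave 2 genes at an unadjusted p under 0.05, Pax3 and Pax7, and DESeq2 called both. The medians were 0.59 over the 10 genes and -0.03 over all genes. Both comparisons gave 9 called genes once both NoDox libraries numbered 1 were left out: 3 higher and 6 lower at day 2, where 53.2% of all genes passed, and 6 higher and 3 lower at day 4, where 38.5% did.

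**Figure D1:**
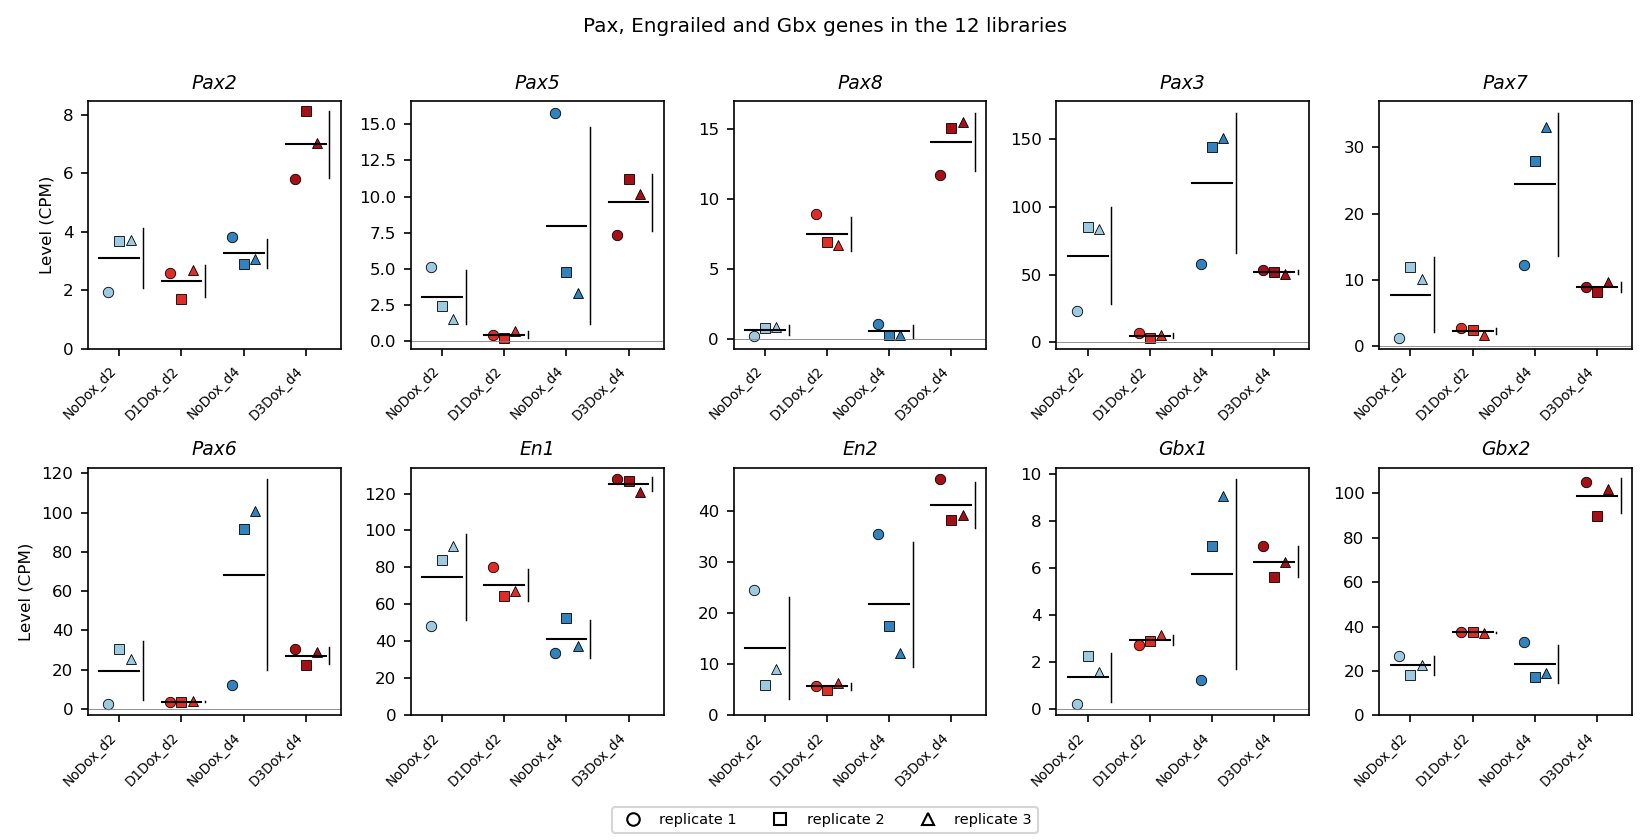
Level of each of the 10 genes (CPM, vertical axis, one scale per gene) in every library of the 4 groups; symbols give the replicate number, horizontal lines the group mean, and vertical bars beside the points the mean ± SD over 3 libraries. Pax8 lies at 0.212 to 1.06 CPM in all 6 NoDox libraries and at 6.71 to 15.5 CPM in all 6 doxycycline libraries, and the circles of both NoDox groups (replicate 1) often lie far from the squares and triangles.

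The promoters of Pax8 and Gbx2, which rose on both days, and of Pax6, which fell at day 2, are shown because these genes moved in opposite directions. The Pax6 call had an edgeR adjusted p of 0.0497 and was lost without any 1 of 10 libraries. Windows came from the RefSeq promoter table of GRCm38.p6, which matched 7 of the 10 genes with 10 windows; Pax3, En2 and Gbx1 had none. The bases before the annotated start are printed from 5′ to 3′ on the gene's strand, at chr2:24475600-24475849 for Pax8, chr1:89931177-89931426 for Gbx2 and chr2:105668646-105668895 for the first of 2 Pax6 starts. Capitals mark a match to the letters GTCACG, the core of a paired-domain site, on either strand.
Pax8: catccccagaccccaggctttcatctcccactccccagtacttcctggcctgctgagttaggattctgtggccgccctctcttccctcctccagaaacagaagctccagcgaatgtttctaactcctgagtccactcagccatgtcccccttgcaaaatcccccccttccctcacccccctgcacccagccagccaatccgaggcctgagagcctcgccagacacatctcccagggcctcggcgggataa
Gbx2: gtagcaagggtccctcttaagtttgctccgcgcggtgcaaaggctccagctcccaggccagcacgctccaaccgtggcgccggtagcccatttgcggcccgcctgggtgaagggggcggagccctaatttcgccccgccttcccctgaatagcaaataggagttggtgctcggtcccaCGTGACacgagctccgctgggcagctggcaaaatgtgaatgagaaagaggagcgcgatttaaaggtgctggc
Pax6: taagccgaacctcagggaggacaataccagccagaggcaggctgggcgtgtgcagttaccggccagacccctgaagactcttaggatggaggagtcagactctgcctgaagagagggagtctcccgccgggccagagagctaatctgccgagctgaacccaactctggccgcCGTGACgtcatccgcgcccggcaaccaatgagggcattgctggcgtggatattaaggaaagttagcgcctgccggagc
No match was found in the window of Pax5, which also fell at day 2. GTCACG on either strand was found in windows of Gbx2, En1 and Pax6, there at both starts, and the En1 match lay after the start. It was found in 8.22% of all 32851 promoter windows of 300 bases. The windows of the 7 genes held 46.3% to 71.7% G and C, against a median of 52.7% over all promoters. All but that of the later Pax6 start lay above this median, and no comparison at like G and C content was made. TAATTA, a homeodomain core, occurs in 5.29% of all windows, and TAAT followed after 3 bases by ATTA, a paired homeodomain site, in 0.487%. Neither was found in the windows of the 7 genes. A match describes letters in a window and shows no binding.

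Pax8 (chr2:24420560-24475599, minus strand, GRCm38), an early factor of the thyroid, kidney, ear and midbrain-hindbrain boundary, had the highest log2 fold change of the 10 genes with doxycycline on both days. It stood at 0.212, 0.791 and 0.855 CPM in NoDox_d2 and at 8.90, 6.92 and 6.71 CPM in D1Dox_d2. At day 4 the levels were 1.06, 0.244 and 0.269 CPM in NoDox_d4 and 11.7, 15.1 and 15.5 CPM in D3Dox_d4. The libraries of the groups did not overlap on either day. Pax8 rose by 3.60 ± 0.52 on the log2 scale (SE, edgeR adjusted p = 0.000513, 12.1-fold) at day 2 and by 4.73 ± 0.54 (adjusted p = 0.000113, 26.6-fold) at day 4. Leaving out both NoDox libraries numbered 1 gave 3.18 (adjusted p = 5.02e-08) and 5.75 (adjusted p = 1.29e-09), and leaving out NoDox_d4 replicate 1 alone gave 5.75 at day 4. The NoDox values rest on 6 to 27 counts per library. Exons of Pax8 share 6.06% of their bases with Gm13415 on the opposite strand. The counting was unstranded and left read pairs that touched both genes unassigned. Gm13415 itself held 0 to 15 counts per library.

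Pax2 (chr19:44756045-44837871, plus strand), which sets up the midbrain-hindbrain boundary and the ureteric bud and optic stalk, lay at low levels throughout. At day 2 it stood at 1.94, 3.68 and 3.72 CPM in NoDox_d2 and at 2.58, 1.71 and 2.69 CPM in D1Dox_d2, and these libraries overlapped. At day 4 it stood at 3.83, 2.89 and 3.07 CPM in NoDox_d4 and at 5.82, 8.11 and 7.04 CPM in D3Dox_d4, with no overlap. Its change at day 2 was -0.42 ± 0.29 (edgeR adjusted p = 0.304), and without both NoDox libraries numbered 1 it fell by 0.68 (adjusted p = 0.0189). At day 4 Pax2 rose by 1.10 ± 0.29 (adjusted p = 0.0164), or by 1.23 (adjusted p = 0.000375) without those libraries. The day 4 call was lost without D3Dox_d4 replicate 2 or 3 or NoDox_d4 replicate 2 or 3, at adjusted p = 0.0674, 0.0510, 0.0555 and 0.0536.

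Pax5 (chr4:44524757-44710487, minus strand), the boundary gene that also commits lymphoid progenitors to the B cell lineage, was the lowest of the 10 genes per kilobase in both doxycycline groups. It stood at 5.15, 2.41 and 1.56 CPM in NoDox_d2 against 0.455, 0.244 and 0.693 CPM in D1Dox_d2, and all NoDox_d2 libraries lay above. At day 4 the levels were 15.8, 4.80 and 3.34 CPM in NoDox_d4 and 7.37, 11.2 and 10.2 CPM in D3Dox_d4, where NoDox_d4 replicate 1 lay above all others. Pax5 fell by 2.71 ± 0.67 on the log2 scale at day 2 (edgeR adjusted p = 0.0121). Leaving out D1Dox_d2 replicate 2 ended this call (adjusted p = 0.0526). The change was -2.10 (adjusted p = 0.000357) without both NoDox libraries numbered 1 and -2.11 without the library labelled NoDox_d2 replicate 1 alone. At day 4 its change was 0.27 ± 0.56 (adjusted p = 0.776), and 1.24 (adjusted p = 0.0016) without both. The D1Dox_d2 values rest on 6 to 16 counts, and 8.60% of the exon bases lie opposite 5730488B01Rik and Gm12462. Of 9 markers of the B cell lineage, between 6 and 9 had a count in each library, and their sum was 12.1 to 28.1 CPM in NoDox_d2, 26.7 to 31.2 CPM in D1Dox_d2, 14 to 23.7 CPM in NoDox_d4 and 30.8 to 40.0 CPM in D3Dox_d4. Blk or Igll1 was at 0 in NoDox and doxycycline libraries alike.

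The related genes Pax2 and Pax8 changed places. Per kilobase of exon, the level of Pax2 was 10.3, 5.21 and 4.87 times that of Pax8 in NoDox_d2 and 4.03, 13.3 and 12.8 times in NoDox_d4. The same ratio was 0.324, 0.277 and 0.448 in D1Dox_d2 and 0.555, 0.603 and 0.510 in D3Dox_d4. Pax2 was thus the higher of the pair in all 6 NoDox libraries and the lower in all 6 doxycycline libraries.

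En1 (chr1:120602418-120607992, plus strand), the Engrailed gene of the early midbrain and anterior hindbrain and of ventral spinal interneurons, was the highest or second highest of the 10 genes per kilobase in every group. Exon bases that Gbx2 shares with another gene, given below, make this place uncertain. En1 stood at 48.1, 84.2 and 91.8 CPM in NoDox_d2 and at 80.2, 64.3 and 67.1 CPM in D1Dox_d2, which overlapped. At day 4 it stood at 33.6, 52.7 and 37.4 CPM in NoDox_d4 and at 128, 127 and 121 CPM in D3Dox_d4, where all doxycycline libraries were higher. The change at day 2 was -0.08 ± 0.22 (edgeR adjusted p = 0.811). It was -0.33 (adjusted p = 0.0420) without both NoDox libraries numbered 1, and its sign turned without NoDox_d2 replicate 3 (0.09). At day 4 En1 rose by 1.60 ± 0.23 (adjusted p = 0.000481, 3.03-fold), and by 1.47 (adjusted p = 8.23e-07) without both.

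En2 (chr5:28165694-28172166, plus strand), the Engrailed gene best known from the cerebellum, varied widely among the NoDox libraries. Its levels were 24.5, 5.93 and 9.11 CPM in NoDox_d2 and 5.83, 4.92 and 6.33 CPM in D1Dox_d2. At day 4 they were 35.6, 17.6 and 12.2 CPM in NoDox_d4 and 46.4, 38.2 and 39.2 CPM in D3Dox_d4. On both days the NoDox library numbered 1 was the highest of its group; the day 2 groups overlapped and the day 4 groups did not. The edgeR changes were -1.21 ± 0.48 (adjusted p = 0.0805) at day 2 and 0.92 ± 0.46 (adjusted p = 0.182) at day 4. Without both NoDox libraries numbered 1 they were -0.41 (adjusted p = 0.102) and 1.47 (adjusted p = 1.69e-05).

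The ratio of En1 to En2 per kilobase was 18.5, 17.6 and 14.3 in D1Dox_d2 and 3.70, 4.47 and 4.15 in D3Dox_d4. In the NoDox groups it was 2.65, 19.1 and 13.6 at day 2 and 1.27, 4.03 and 4.14 at day 4. Leaving aside NoDox replicate 1, all libraries lay at 13.6 to 19.1 on day 2 and at 3.70 to 4.47 on day 4.

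Gbx2 (chr1:89927956-89931179, minus strand), the homeobox gene of the anterior hindbrain and also of pluripotent cells, had the lowest adjusted p of the 10 genes at day 4. It stood at 26.8, 18.2 and 22.6 CPM in NoDox_d2 and at 37.7, 37.4 and 37.0 CPM in D1Dox_d2. The day 4 levels were 33.0, 17.2 and 19.1 CPM in NoDox_d4 and 105, 89.9 and 102 CPM in D3Dox_d4. All doxycycline libraries lay above all NoDox libraries of their day. Gbx2 rose by 0.73 ± 0.22 (edgeR adjusted p = 0.0279, 1.65-fold) at day 2 and by 2.10 ± 0.22 (adjusted p = 6.28e-05, 4.28-fold) at day 4. Leaving out both NoDox libraries numbered 1 gave 0.86 (adjusted p = 1.25e-05) and 2.45 (adjusted p = 8.33e-10). The day 2 rise no longer passed when D1Dox_d2 replicate 1, 2 or 3 was left out (adjusted p = 0.0745, 0.0748 and 0.0751), nor without NoDox_d2 replicate 2 or 3 (0.108 and 0.0784).

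Exons of Gbx2 share 946 bases, or 43.5%, with D130058E05Rik on the opposite strand, and the counting had no strand setting. Read pairs that touched both genes were left unassigned, and counts of Gbx2 may hold pairs from the other strand. D130058E05Rik, chosen after its values were seen, averaged 5.72 CPM in NoDox_d2, 3.06 CPM in D1Dox_d2, 7.92 CPM in NoDox_d4 and 8.05 CPM in D3Dox_d4. Its edgeR changes were -0.90 ± 0.33 (adjusted p = 0.0624) at day 2 and 0.02 ± 0.32 (adjusted p = 0.970) at day 4. Its mean CPM, not scaled by exon length, was below that of Gbx2 in each group. Pairs that touched both genes are missing from both counts, so these levels cannot show how much the other strand adds to Gbx2.

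Gbx1 (chr5:24502757-24527202, minus strand), the related gene of the spinal cord and anterior hindbrain, was low in all groups. It stood at 0.212, 2.25 and 1.60 CPM in NoDox_d2 and at 2.73, 2.89 and 3.16 CPM in D1Dox_d2, and the groups did not overlap. At day 4 it stood at 1.22, 6.95 and 9.07 CPM in NoDox_d4 and at 6.94, 5.64 and 6.25 CPM in D3Dox_d4. The NoDox libraries numbered 1 were the lowest on both days, opposite to En2 and Pax5. The edgeR change was 1.12 ± 0.71 (adjusted p = 0.259) at day 2 and 0.13 ± 0.66 (adjusted p = 0.916) at day 4. Without both NoDox libraries numbered 1, Gbx1 rose by 0.60 at day 2 (adjusted p = 0.0338), and at day 4 the sign turned to -0.35 (adjusted p = 0.137). Per kilobase, Gbx2 was 22.0, 20.7 and 18.7 times as high as Gbx1 in D1Dox_d2 and 24.2, 25.4 and 25.9 times in D3Dox_d4. The ratio in the NoDox groups was 202, 12.9 and 22.6 at day 2 and 43.1, 3.95 and 3.35 at day 4. These ratios use all exon bases of Gbx2, including those shared with D130058E05Rik, and may be too low.

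**Figure D2:**
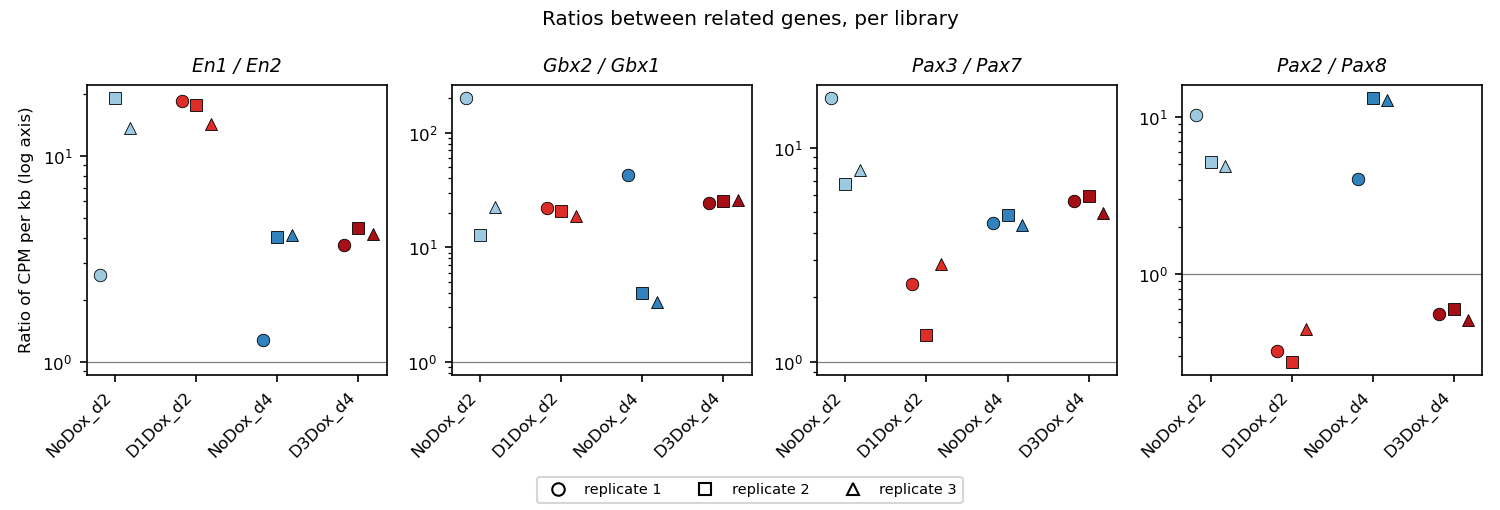
Ratio of the levels per kilobase of exon of 4 pairs of related genes (log axis) in each library of the 4 groups; symbols give the replicate number and the grey line marks equal levels. The Pax2 to Pax8 ratio is above 1 in the 6 NoDox libraries and below 1 in the 6 doxycycline libraries, and the NoDox circles stand apart in the En1 to En2 and Gbx2 to Gbx1 panels.

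Pax3 (chr1:78101267-78197134, minus strand), the gene of the dorsal neural tube, neural crest and dermomyotome, was the most abundant Pax gene per kilobase in all NoDox libraries and had the lowest day 2 adjusted p of the 10 genes. It stood at 23.0, 85.1 and 84.0 CPM in NoDox_d2 and at 6.63, 3.42 and 5.24 CPM in D1Dox_d2. At day 4 it stood at 57.7, 144 and 151 CPM in NoDox_d4 and at 53.3, 51.6 and 50.3 CPM in D3Dox_d4. All NoDox libraries lay above the doxycycline libraries of their day, NoDox_d4 replicate 1 by little. Pax3 fell by 3.65 ± 0.51 on the log2 scale at day 2 (edgeR adjusted p = 0.000396), and its mean was 12.5-fold higher in NoDox_d2. The day 4 change was -1.18 ± 0.45 (adjusted p = 0.0799). With both NoDox libraries numbered 1 left out, the changes were -4.05 (adjusted p = 9.22e-11) and -1.51 (adjusted p = 7.1e-07).

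The summed level of 4 somite and muscle markers, genes of a tissue that also expresses Pax3 and Pax7, was 25.8 to 29.8 CPM in NoDox_d2, 2.23 to 2.73 CPM in D1Dox_d2, 44.8 to 251 CPM in NoDox_d4 and 20.2 to 24.0 CPM in D3Dox_d4. It reached 251 CPM in NoDox_d4 replicate 1, where Pax3 was lowest of its group, and Myod1 of skeletal muscle was at 0 in some libraries of 3 groups. The sum of 3 neural crest markers was 8.40 to 14.3, 29.3 to 37.6, 10.4 to 31.4 and 38.7 to 46.2 CPM in the same order of groups, which is the opposite direction to Pax3 at day 2. Much of the day 2 difference was that of Tfap2b, which averaged 3.5 CPM in NoDox_d2 and 23.1 CPM in D1Dox_d2. Sox10 stood at 2.40, 7.27 and 7.10 CPM in NoDox_d2 and at 5.45, 4.96 and 5.81 CPM in D1Dox_d2, which overlapped. The part of these cell types in the Pax3 levels was not tested.

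Pax7 (chr4:139737062-139833528, minus strand), which shares the dorsal neural tube and muscle precursors with Pax3, likewise had its lowest group mean in D1Dox_d2. It stood at 1.27, 11.9 and 10.1 CPM in NoDox_d2 and at 2.73, 2.44 and 1.73 CPM in D1Dox_d2, and the library labelled NoDox_d2 replicate 1 was the lowest of these 6. The day 4 levels were 12.3, 28 and 33 CPM in NoDox_d4 and 8.93, 8.19 and 9.67 CPM in D3Dox_d4, with no overlap. The edgeR changes were -1.75 ± 0.62 (adjusted p = 0.0535) at day 2 and -1.45 ± 0.58 (adjusted p = 0.0954) at day 4. Without both NoDox libraries numbered 1, Pax7 fell, with changes of -2.25 (adjusted p = 8.01e-08) and -1.77 (adjusted p = 2.61e-07). Per kilobase, Pax3 was 2.30, 1.33 and 2.87 times as high as Pax7 in D1Dox_d2, and 17.1, 6.76 and 7.90 times in NoDox_d2. By day 4 the ratio was 4.43, 4.86 and 4.34 in NoDox_d4 and 5.65, 5.97 and 4.93 in D3Dox_d4, so that the 3 lowest of the 12 ratios were those of D1Dox_d2.

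Pax6 (chr2:105668900-105697364, plus strand), which patterns the ventral to intermediate neural tube and directs forebrain and eye development, stood far apart within the NoDox groups. It stood at 2.47, 30.6 and 25.2 CPM in NoDox_d2 and at 3.48, 3.58 and 4.16 CPM in D1Dox_d2. At day 4 it stood at 12.3, 91.8 and 101 CPM in NoDox_d4 and at 30.6, 22.2 and 28.8 CPM in D3Dox_d4. On each day the NoDox library numbered 1 lay below all doxycycline libraries and the other NoDox libraries above them. Pax6 fell by 2.37 ± 0.82 at day 2 (edgeR adjusted p = 0.0497), a call that leaving out any 1 of 10 libraries ended (adjusted p up to 0.155, without NoDox_d2 replicate 2). The libraries whose loss kept the call were the library labelled NoDox_d2 replicate 1 and NoDox_d4 replicate 1. The day 4 change was -1.33 ± 0.76 (adjusted p = 0.237). Without both NoDox libraries numbered 1 the changes were -2.91 (adjusted p = 1.56e-09) and -1.83 (adjusted p = 4.83e-08).

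**Figure D3:**
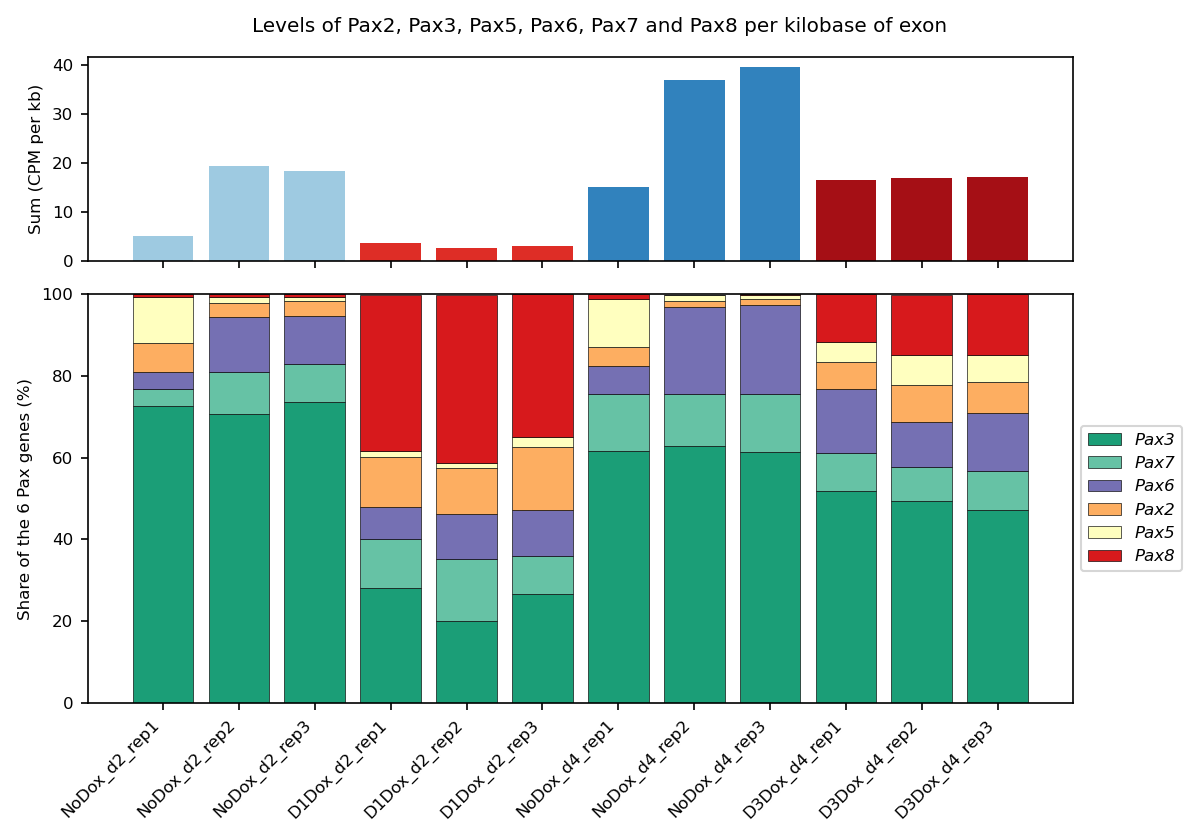
Sum of the levels of Pax2, Pax3, Pax5, Pax6, Pax7 and Pax8 (CPM per kilobase of exon, upper panel) and the share of each gene in that sum (percent, lower panel) in the 12 libraries. The Pax8 share is 34.8% to 41.3% in D1Dox_d2 and at most 1.16% in the NoDox libraries, while Pax3 makes 61.5% to 73.6% of the sum in NoDox libraries.

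The composition of the Pax family differed between the groups, while its summed level lay below all other libraries in D1Dox_d2 and within the range of NoDox_d4 in D3Dox_d4; neither was tested. Their levels per kilobase summed to 5.12 to 19.5 CPM per kilobase in NoDox_d2, 2.76 to 3.83 in D1Dox_d2, 15.2 to 39.7 in NoDox_d4 and 16.6 to 17.3 in D3Dox_d4. Pax3 made 70.6% to 73.6% of this sum in NoDox_d2 and 61.5% to 62.8% in NoDox_d4, including both libraries numbered 1. Its share was 20% to 28% in D1Dox_d2 and 47.1% to 51.9% in D3Dox_d4. Pax8 made 34.8% to 41.3% in D1Dox_d2 and 11.7% to 14.8% in D3Dox_d4, against 0.669% to 0.764% in NoDox_d2 and 0.109% to 1.16% in NoDox_d4.

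Among all 10 genes, En1 led the order per kilobase in NoDox_d2, at 28.5 ± 8.90 CPM per kilobase (SD, n = 3), followed by Gbx2 at 10.4 ± 1.98 and Pax3 at 10.4 ± 5.75, whose libraries overlapped. En1 at 26.9 ± 3.22 and Gbx2 at 17.1 ± 0.162 also led in D1Dox_d2, where En2 came next at 1.61 ± 0.201 and Pax5 was last at 0.0524 ± 0.0254. In NoDox_d4 the order was Pax3 at 19.0 ± 8.38, En1 at 15.7 ± 3.87 and Gbx2 at 10.6 ± 3.97, each overlapping with the next. In D3Dox_d4 En1 at 47.6 ± 1.40 and Gbx2 at 45.4 ± 3.66 overlapped, and both lay above En2 at 11.7 ± 1.27 and Pax3 at 8.36 ± 0.242. Gbx2 was divided by all its exon bases, of which 43.5% lie opposite D130058E05Rik, where pairs touching both genes were left unassigned. The level of Gbx2 per kilobase may therefore be too low, and its place relative to En1 and Pax3 is uncertain. Pax8 was last in both NoDox groups, at 0.102 ± 0.0585 and 0.0868 ± 0.0770, with no overlap with the gene above it.

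The doxycycline effect differed between the days for Pax2, Pax3, Pax5, En1 and Gbx2, each with a higher value at day 4, and 0 of the 10 had a lower one by edgeR at an unadjusted p under 0.05 or by DESeq2. That is 5 of 10 genes, where 12.9% of all genes tested passed for this difference, and the median difference was 1.45 over the 10 genes and 0.00 over all. The difference uses the libraries of both effects and is no separate evidence. Pax5 differed most, by 2.98 ± 0.87 (edgeR adjusted p = 0.0450), followed by Pax3 with 2.47 ± 0.66 (adjusted p = 0.0311). En1 differed by 1.68 ± 0.31 (adjusted p = 0.00692), Pax2 by 1.52 ± 0.41 (adjusted p = 0.0320) and Gbx2 by 1.37 ± 0.31 (adjusted p = 0.0153). En2 gave 2.13 ± 0.67 (adjusted p = 0.0576), Pax8 1.13 ± 0.72 (0.314), Pax6 1.04 ± 1.09 (0.553), Pax7 0.29 ± 0.83 (0.843) and Gbx1 -0.99 ± 0.96 (0.519).

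Of the 10 genes, 9 passed for the difference once both NoDox libraries numbered 1 were left out, where 34.5% of all genes did. Then the values were 3.34 for Pax5, 2.58 for Pax8, 2.54 for Pax3, 1.90 for Pax2, 1.88 for En2, 1.80 for En1, 1.59 for Gbx2, 1.08 for Pax6 and -0.95 for Gbx1. Pax7, at 0.48 (edgeR adjusted p = 0.122), was the gene that did not pass. With all libraries, leaving out 1 of them ended the Pax2 call in 9 cases (adjusted p up to 0.0809, without D1Dox_d2 replicate 2), the Pax3 call in 7 (up to 0.0808, without D1Dox_d2 replicate 2) and the Pax5 call in 10 (up to 0.115, without D1Dox_d2 replicate 2). The En1 and Gbx2 calls stood in all 12 cases, with adjusted p up to 0.0242 and 0.0430.

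**Figure D4:**
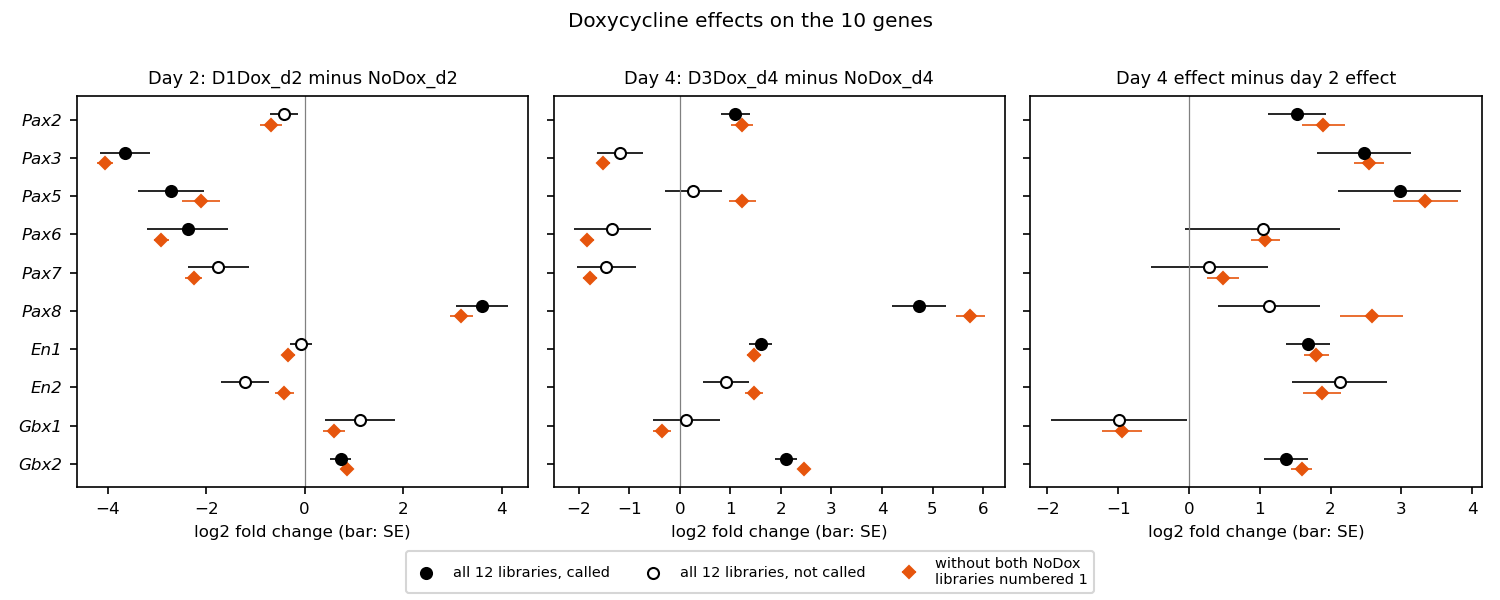
Log2 fold change (bar: SE) of each gene with doxycycline at day 2 and at day 4, and the difference of these effects; filled black circles passed the edgeR adjusted p of 0.05 with all 12 libraries, open circles did not, and orange diamonds give the values without both NoDox libraries numbered 1. Pax8 is highest on both days, at 3.60 and 4.73, and Pax3 lowest at day 2, at -3.65; the diamonds keep the side of 0 for all genes but Gbx1 at day 4.

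From day 2 to day 4 without doxycycline, En1 fell and no other gene of the 10 passed with all libraries in the edgeR fit, where 10.6% of all genes passed. Among higher values, 4 genes had an unadjusted p under 0.05, and DESeq2 called Pax7 and Gbx1. En1 fell by 0.86 ± 0.22 (edgeR adjusted p = 0.0318), or by 0.97 (adjusted p = 0.000185) without both NoDox libraries numbered 1. Its call was lost without NoDox_d2 replicate 2 or 3 or NoDox_d4 replicate 1 or 3, at adjusted p = 0.0867, 0.113, 0.0587 and 0.117. Same-numbered NoDox libraries deviated together from their group means. Libraries numbered 2 and 3 also did so across numbers. The correlation r of these deviations was 0.417 for NoDox_d2 replicate 2 with NoDox_d4 replicate 3, against 0.360 with its own number. It was 0.324 for NoDox_d2 replicate 3 with NoDox_d4 replicate 2, against 0.311. Pairing these libraries thus rests on the number alone. The fit with the replicate number as a block on these 6 libraries called 6 of the 10 genes, where it called 11.6% of all genes. In that fit, chosen after seeing the data, Gbx1 rose by 2.14 ± 0.30 (adjusted p = 0.0107), Pax7 by 1.96 ± 0.37 (0.0233), Pax6 by 1.92 ± 0.16 (0.00341), Pax5 by 1.24 ± 0.23 (0.0231) and Pax3 by 0.96 ± 0.13 (0.0099), and En1 fell by 0.84 ± 0.16 (0.0251). Pax6, for one, was higher at day 4 within each number, at 12.3 against 2.47 CPM, 91.8 against 30.6 CPM and 101 against 25.2 CPM. Without both NoDox libraries numbered 1, 8 of 10 genes passed, 6 higher and 2 lower, where 24.4% of all genes did. The 2 lower genes were En1 and Pax8, which fell by 1.66 (adjusted p = 0.00948).

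Between the doxycycline groups, D3Dox_d4 against D1Dox_d2, 8 of 10 genes rose and none fell, where 44% of all genes passed, 22.6% higher and 21.4% lower. No gene of the 10 was lower at an unadjusted p under 0.05 by edgeR or by the DESeq2 test. The groups did not overlap for any of these 8 genes. Pax5 rose most, by 4.36 ± 0.69 (edgeR adjusted p = 0.000535, 20.6-fold), followed by Pax3 with 3.34 ± 0.50 (0.000411), En2 with 2.86 ± 0.50 (0.00103) and Pax6 with 2.86 ± 0.83 (0.0165). Pax7 rose by 1.95 ± 0.62 (0.0243), Pax2 by 1.59 ± 0.29 (0.00137), Gbx2 by 1.40 ± 0.22 (0.000481) and En1 by 0.82 ± 0.22 (0.0114). Gbx1, at 1.10 ± 0.68 (0.203), and Pax8, at 0.91 ± 0.44 (0.115), did not pass. Both passed at like values when both NoDox libraries numbered 1 left the fit (Gbx1 at 1.11, adjusted p = 7.06e-05, and Pax8 at 0.91, 8.95e-05). All 10 of 10 genes then rose, where 61.8% of all genes passed in either direction. The share of all genes that rose in that fit was not computed. With only the 6 doxycycline libraries in the fit Gbx1 and Pax8 passed too, at 1.08 (0.00019) and 0.89 (0.000494). The call was lost without D1Dox_d2 replicate 1 or 2 for Pax6 (adjusted p = 0.0527 and 0.0554). For Pax7 it was lost without any 1 of 5 doxycycline libraries, D3Dox_d4 replicate 2 excepted (adjusted p up to 0.0854, without D1Dox_d2 replicate 3).

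Across the 12 libraries, in their 4 groups, Pax6 and Pax7 had the highest correlation of log2 CPM among the 10 genes (Pearson r = 0.96), followed by Pax5 and En2 with 0.92 and Pax3 and Pax6 with 0.88. Pax3 and Pax8 gave -0.50. These points share groups and libraries, and the values are a description. Among 13208 genes, those most like Pax3 were Got2 (0.995), Crabp2 (0.989) and Ddx59 (0.988), and those most like Pax6 were Msi1 (0.990), Fam172a and Slain1 (both 0.985). Pax8 was most like Rian (0.989), Kcnj12 (0.976) and Pag1 (0.974), and Pax7 most like Gulp1 (0.98), Pde3b (0.978) and Dhx32 (0.972). Pax2 was nearest to Zbtb46 (0.967), Cep97 (0.956) and Sept6 (0.954), and Pax5 to Maml3 (0.969), Acer2 and Sp4 (both 0.966). The nearest genes were Dnpep (0.962), Litaf (0.960) and Pou4f2 (0.943) for En1 and included Dennd2a (0.953) and Fam189a1 (0.951) for En2. They were Lrrn1 (0.987), Khdrbs3 (0.967) and Lnpk (0.962) for Gbx1 and Kcnip4, Jak1 and Zfp949 (all 0.971) for Gbx2.

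The lists below are read against all genes, of which 28.4% passed at day 2 and 23.5% at day 4. In the fit without both NoDox libraries numbered 1, called the reduced fit here, 53.2% passed at day 2 (26.8% higher, 26.4% lower) and 38.5% at day 4 (20.6% higher, 17.9% lower), so that the background share was also higher. Of 16 other genes of the midbrain-hindbrain boundary, 1 rose and 7 fell at day 2, and 3 rose and 4 fell at day 4, with medians of -0.50 and -0.20 against -0.03 over all genes. In the reduced fit 3 rose and 10 fell at day 2, and 5 rose and 8 fell at day 4. Cnpy1, an FGF signalling modulator of the boundary, fell by 1.86 ± 0.21 at day 2 (edgeR adjusted p = 0.000102). Spry2, an FGF feedback inhibitor, fell by 1.31 ± 0.19 (0.000524). At day 4 Otx1, a homeobox gene of the forebrain and midbrain, rose by 2.57 ± 0.50 (0.00358) from 0.105 to 0.647 CPM, and Tle4, a co-repressor, by 0.59 ± 0.14 (0.0103). Spry1 fell by 0.99 ± 0.17 (0.00142), and Lmx1a, of the roof plate and floor plate, held 172 counts in NoDox_d4 against 3 in D3Dox_d4, a count ratio of 58.9 (95% interval 19.8 to 289, counting error only).

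Further boundary genes were chosen after their values were seen. Otx2, which opposes Gbx2 at the boundary, averaged 17.8 CPM in NoDox_d2 and 17.4 CPM in D1Dox_d2 (-0.03 ± 0.63, edgeR adjusted p = 0.976), and 6.31 CPM in NoDox_d4 and 4.54 CPM in D3Dox_d4 (-0.47 ± 0.65, 0.652). With both NoDox libraries numbered 1 left out, its changes were -0.39 (0.117) and -0.99 (0.00372), a called fall at day 4. Fgf8, the signal of the boundary organizer, fell by 1.28 ± 0.32 at day 2 (0.0133) and was at 0.03 ± 0.32 at day 4 (0.957). Fgf17, of the same family, fell on both days, with changes of -3.17 ± 0.80 (0.0129) and -2.78 ± 0.84 (0.0328), where the changes without both NoDox libraries numbered 1 were -2.29 and -1.08. Wnt1, of the midbrain side, gave -2.72 ± 1.02 (0.0653) and -1.56 ± 0.96 (0.273), and passed on both days without those libraries, at -3.29 (4.22e-08) and -2.06 (3.59e-06). Lmx1b, also of the boundary list, went the other way at day 4, with changes of -0.19 ± 0.39 (0.748) and 0.98 ± 0.36 (0.0668). Without those libraries it gave -0.51 (0.0831) at day 2 and was called higher at day 4, at 0.70 (0.0041). Pax9 averaged 0.0907 and 0.510 CPM at day 2 and 1.28 and 0.984 CPM at day 4, NoDox first, and Pax1 was 1.10 CPM or less in every group mean. The Pax1 level of NoDox_d4 was that of replicate 1 alone, at 3.31, 0 and 0 CPM. Neither of these other Pax genes passed by edgeR with all 12 libraries, although 1 of them on each day had an unadjusted p under 0.05 and DESeq2 called Pax9 at day 2. With both NoDox libraries numbered 1 left out, edgeR called both higher at day 2, Pax9 by 1.88 (adjusted p = 0.0121) and Pax1 with an adjusted p of 0.00038 against NoDox libraries at 0 counts, and neither at day 4.

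Of 12 hindbrain segment genes, 1 rose and 7 fell at day 2, and 1 rose and 1 fell at day 4. In the reduced fit 1 rose and 10 fell at day 2, and 1 rose and 6 fell at day 4. Hoxb1, which defines the fourth hindbrain segment, fell by 1.79 ± 0.13 at day 2 (edgeR adjusted p = 4.06e-06) and Fgf3 by 2.87 ± 0.28 (2.8e-05).

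Of 16 tested progenitor-domain genes of the neural tube, 3 rose and 2 fell at day 2, and 4 rose and 6 fell at day 4. In the reduced fit 8 rose and 5 fell at day 2, and 5 rose and 9 fell at day 4. Nkx6-2 and Nkx6-1, ventral homeobox genes, rose at day 2 by 6.84 ± 0.66 (edgeR adjusted p = 2.8e-05) and 3.91 ± 0.42 (6.35e-05), and Nkx6-1 also at day 4, by 3.55 ± 0.41 (0.000119). Olig3, a dorsal factor, fell by 3.39 ± 0.58 at day 2 (0.00145). At day 4 Neurog2, a proneural factor, rose by 3.01 ± 0.33 (7.97e-05) and Shh, the floor plate signal, fell by 5.70 ± 0.60 (6e-05). Nkx2-9, a target next to the floor plate, held 200 counts in NoDox_d4 and 2 in D3Dox_d4 (ratio 103, 95% interval 28.1 to 855).

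Of 13 interneuron genes, 6 rose and 3 fell at day 2, and 4 rose and 1 fell at day 4. In the reduced fit 8 rose and 3 fell at day 2, and 5 rose and 1 fell at day 4. Slc6a5, the glycine transporter of inhibitory neurons, rose by 7.09 ± 0.58 at day 2 (edgeR adjusted p = 8.21e-06) and 2.92 ± 0.48 at day 4 (0.00122), and Gad2, of GABA synthesis, by 2.46 ± 0.32 at day 2 (0.00026). Foxd3, also a crest gene, rose by 3.0 ± 0.43 at day 4 (0.000551). Of 13 neural plate border and crest genes, 4 rose and 2 fell at day 2, and 4 rose at day 4, when edgeR called none lower (2 at an unadjusted p under 0.05, and Zic2 by DESeq2). In the reduced fit 6 rose and 4 fell at day 2, and 8 rose and 4 fell at day 4. Tfap2b rose by 2.72 ± 0.37 at day 2 (0.000318) and Sox10, a factor of migrating crest, by 1.62 ± 0.38 at day 4 (0.00943), while Zic1, of the dorsal neural tube, fell by 4.69 ± 0.75 at day 2 (0.000955).

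Of 10 tested eye and forebrain genes, the setting of Pax6, 5 rose and 1 fell at day 2, and 2 rose at day 4, when edgeR and DESeq2 called none lower (1 at an unadjusted edgeR p under 0.05). In the reduced fit 6 rose and 2 fell at day 2, and 4 rose and 0 fell at day 4. Fezf2, a forebrain factor, rose by 4.31 ± 0.53 at day 2 (edgeR adjusted p = 0.000151). Of 7 tested endocrine pancreas genes, 4 rose on each day and 0 were lower by edgeR at an unadjusted p under 0.05 or by DESeq2. The reduced fit gave 5 higher and 0 lower at day 2, and 4 higher and 1 lower at day 4. Chga, a protein of secretory granules, rose by 1.09 ± 0.18 (0.00113) and 3.05 ± 0.19 (1.27e-06).

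Of 14 kidney and ear genes, tissues of Pax2 and Pax8, 5 rose and 1 fell at day 2, and 4 rose and 2 fell at day 4. The reduced fit gave 8 higher and 1 lower at day 2, and 7 higher and 3 lower at day 4. Six2, of nephron progenitors, rose by 2.16 ± 0.15 (edgeR adjusted p = 2e-06) and 2.35 ± 0.15 (1.63e-06), and Gata3 by 3.24 ± 0.28 at day 2 (1.43e-05). Ret, the receptor of the ureteric bud, rose by 2.81 ± 0.26 at day 4 (2.64e-05), while its ligand Gdnf fell, with changes of -1.52 ± 0.32 (0.00545) and -3.57 ± 0.38 (6.22e-05). The sum of 4 kidney markers was 76.3 to 81.4 CPM in D1Dox_d2 and 104 to 129 CPM in D3Dox_d4, against 16.5 to 18.6 and 17 to 38.3 CPM in the NoDox groups. At day 4 most of this sum came from Ret, at 87.4 CPM in D3Dox_d4 against 12.5 CPM in NoDox_d4, and Six2, at 30.9 against 6.05 CPM. Wt1 and Osr1, the other markers of the sum, are not given singly. The part of these markers in the Pax8 levels was not tested.

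Of 11 tested somite and muscle genes, 2 rose and 2 fell at day 2, and 1 rose and 7 fell at day 4. The reduced fit gave 6 higher and 3 lower at day 2, and 1 higher and 6 lower at day 4. Meox1, of the early somite, fell by 4.46 ± 0.71 at day 2 (edgeR adjusted p = 0.001), and Tcf15, of the same tissue, fell from 6.11 to 1.23 CPM (0.000437). Eya2, a co-factor of muscle and placode precursors, rose by 2.66 ± 0.33 (0.000153) and 3.33 ± 0.33 (3.43e-05). Foxc2 fell by 2.25 ± 0.49 at day 4 (0.00658), or by 1.20 without both NoDox libraries numbered 1. Of 12 pan-neural genes, 1 rose and 4 fell at day 2, and 7 rose and 1 fell at day 4. The reduced fit gave 1 higher and 8 lower at day 2, and 7 higher and 5 lower at day 4. Sox3, of neural progenitors and epiblast, fell, with changes of -3.03 ± 0.17 (6.33e-07) and -2.12 ± 0.17 (6.92e-06), while Dcx and Stmn2, of young neurons, rose at day 4 by 1.95 ± 0.30 (0.000844) and 2.29 ± 0.36 (0.00103).

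Of 5 tested B cell genes, the lineage of Pax5, 2 rose at day 2 and 3 at day 4, and 0 were lower by edgeR at an unadjusted p under 0.05 or by DESeq2. The reduced fit gave 2 higher and 0 lower at day 2, and 3 higher and 0 lower at day 4. Ptprc, the leukocyte antigen CD45, rose by 2.43 ± 0.48 at day 2 (edgeR adjusted p = 0.0034), from 0.554 to 3.02 CPM, a day on which Pax5 fell. Rag1 rose by 3.93 ± 0.78 at day 4 (0.00369), from 0.0519 to 0.869 CPM.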

How the data were processed

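RNA-seq libraries of 12 embryoid body samples were prepared by the NEBNext Ultra II kit, and their 150 bp read pairs trimmed with Trim Galore, per the labels' protocols. The submitters' processing notes name the builds GRCm38 and mm10 and the tools STAR, featureCounts and DESeq2. The deposited table holds unnormalized counts of read pairs for each gene, which the authors obtained with featureCounts 2.0.1, the GENCODE M25 annotation and no strand or multi-overlap option, per the file headers. Symbols were matched for 55141 of 55487 genes, and exon lengths came from the same deposited table.

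Groups follow the sample titles. The counts were tested with edgeR 4.0.16 (limma 3.58.1, R 4.3.3): TMM scaling, filterByExpr, 1 coefficient per group over all 12 libraries, 8 residual degrees of freedom, the quasi-likelihood F-test, and Benjamini-Hochberg adjustment over 18109 genes. Genes were called at an adjusted p under 0.05. The SE equals the absolute log2 fold change over the root of F. The fit was also run on simulated counts with the same spread for all genes and no outlying libraries. That run does not cover calls that depend on the NoDox libraries numbered 1. Levels are CPM, or CPM per kilobase of exon where genes are compared.

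The 10 genes and all lists were chosen with earlier results of these data known. The named-gene rule took all 10, up to 2 called list genes with the lowest adjusted p per direction and day, and the 3 genes most correlated with each of the 10. Of 63 list calls so taken, 12 that were lost without 1 library are counted but not named, others are left out for length, and a few genes the rule took are not reported here. Genes in 2 lists count in both.

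Same-numbered libraries of NoDox_d2 and NoDox_d4 deviated together (r = 0.311 to 0.545 of deviations from group means), and the replicate numbers were taken to pair them. Replicates 2 and 3 also deviated together across numbers (r = 0.417 and 0.324), so their pairing is not shown by the data. The labels give no basis beyond the number. For same-numbered libraries of the other pairs of groups r was -0.124 to 0.244. Alternatives were upper-quartile scaling and DESeq2 size factors, the test of DESeq2 1.42.0, at least 1 CPM in 3 libraries or no filter, a replicate block, only the libraries compared, and each library left out. The removal of both NoDox libraries numbered 1 and the block on the NoDox libraries alone were added after seeing the data. Protein sequences were not used here.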

Additional observations from a re-analysis of the deposited data

Results flagged for a closer look

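For 5 of the 10 genes the doxycycline effect differed between day 4 and day 2 by the edgeR test of the difference itself. The differences (day 4 minus day 2, log2) were 1.52 for Pax2, 2.47 for Pax3, 2.98 for Pax5, 1.68 for En1 and 1.37 for Gbx2. For Pax3 and Pax5 the day 2 effect was a called fall and the day 4 effect was not called. For En1 and Pax2 only the day 4 effect was called, and for Gbx2 both effects were called rises. The En1 and Gbx2 differences passed in every fit with 1 library left out, while those of Pax2, Pax3 and Pax5 did not.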

How the results depend on the processing

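Scaling by DESeq2 size factors or upper quartiles moved the median of all genes by at most 0.050 and kept the sign of each gene's change in all 5 comparisons. Across all alternatives, 856 fold changes of the 10 genes kept their direction and side of the threshold, 66 passed only under the alternative, 61 passed only in the reported fit, and 17 changed sign. Without both NoDox libraries numbered 1, the called genes were 9902 at day 2, 7168 at day 4, 6424 for the difference and 4534 for NoDox_d4 against NoDox_d2, of which 9, 9, 9 and 8 were among the 10. Leaving out 1 library gave 3048 to 7438, 2756 to 5554, 1226 to 5037 and 1064 to 3208 called genes, and 2 to 7, 3 to 7, 2 to 7 and 0 to 3 of the 10. It gave 5976 to 9425 and 6 to 9 of the 10 between the doxycycline groups. NoDox_d4 against NoDox_d2 gave 206 called genes and 0 of the 10 with only the 6 libraries compared, 3 of the 10 with no filter and with DESeq2, and 6 with the replicate block on the NoDox libraries. The causes were not tested.

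The replicate block over all 12 libraries, where the doxycycline and NoDox libraries share only a number, left Pax6 at day 2 at -2.0 (edgeR adjusted p = 0.0768) and En2 for the difference at 2.05 (0.0259), and changed no other call of the 10; 3 of the 6 NoDox libraries correlated best with their own number. With 1 library left out, signs turned for En1 at day 2 (-0.33 to 0.09; 0.00 without NoDox_d2 replicate 2), Pax5 at day 4 (-0.10 to 1.24), Gbx1 at day 4 (-0.35 to 0.62, and -0.35 without both numbered 1) and Pax7 for the difference (-0.15 to 0.81). For NoDox_d4 against NoDox_d2 they turned for Pax2 (-0.19 to 0.22, and -0.31 without both), Pax8 (-1.24 to 0.11) and Gbx2 (-0.31 to 0.21, -0.17 without both, and -0.02 with the block on the NoDox libraries). None of these genes was called in the comparison concerned with all 12 libraries; without both NoDox libraries numbered 1, En1 at day 2 (-0.33, adjusted p = 0.042), Pax5 at day 4 (1.24, 0.0016) and Pax8 for NoDox_d4 against NoDox_d2 (-1.66, 0.00948) were. Depth limits Pax5 in D1Dox_d2 and Pax8 without doxycycline, which rest on few counts.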
